A study of Mus musculus with 2 samples.

Results

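The cytosolic chaperonin CCT, also called TRiC, is built from the products of 8 genes, Tcp1, Cct2, Cct3, Cct4, Cct5, Cct6a, Cct7 and Cct8. All 8 were measured here among 10191 coding genes above the signal filter, chosen as the genes whose symbol on the array is that of a CCT subunit. The array carried 12 probes with these symbols. Of these, 9 target the RefSeq mRNA (a pair for Cct2 and one for each other gene), and the other 3 target cDNA clones of Tcp1, Cct3 and Cct4. Each probe was printed as 1 spot, and none of the 12 was saturated or marked as an outlier.

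CCT is a barrel of 2 stacked rings in which each subunit occupies a fixed place, so that all subunits are needed in a fixed proportion. Newly made actin and tubulin enter its cavity to fold with the help of ATP. Prefoldin hands these chains over, phosducin-like proteins act as co-chaperones, and the tubulin cofactors take over tubulin after its release. The subunits are thought of as housekeeping products of growing cells, unlike the ER chaperones that the unfolded protein response induces.

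The material was the mouse embryonic fibroblast line NIH3T3, grown in 10% calf serum and either left untreated (control) or given 10 µM thapsigargin for 3 h. Thapsigargin blocks the calcium pump of the ER and so sets off the unfolded protein response, in which the kinase PERK phosphorylates eIF2α and initiation of translation is held back. In each condition, RNA from polysomes (P, labelled with Cy3) competed on 1 dual-colour array with RNA from free and monosome fractions (FM, labelled with Cy5). Each RNA had been pooled from 3 polysome preparations of 4 plates each, so there was no replicate array, no difference below was tested, and no p-value is given.

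Translation efficiency is log2 P/FM, the log2 ratio of both background-subtracted signals, and A is the mean of both log2 signals, taken as the relative abundance of an mRNA. The dyes were not swapped, so a dye effect cannot be told apart from a difference between P and FM, and one that varies with signal or array would stay in the change between arrays too. Without replicates, the spread was read from the arrays themselves. Among 99 coding probes printed in 8 to 10 spots, the change in log2 P/FM had a median SD of 0.09, and among different probes of 1 mRNA (3438 mRNAs) it had a median SD of 0.32. The scanner software's own error of log2 P/FM was between 0.20 and 0.25 for the CCT mRNA probes and is given after ± below. It describes the spot and not the spread between cultures. Between 42.5% and 46.3% of the 43379 probe spots were well above background in each channel. The labelled cell type was checked with markers: 9 of 9 fibroblast markers passed the filter on both arrays, against 1 of 10 markers of other cell types (Cd3e).

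The probe sequences of the genes on which the results turn are shown because they fix which mRNA was counted. All are in lower case, 5′ to 3′, as the array design gives them, with mm9 coordinates. Of the 9 mRNA probes, 8 have at least 1 forward reading frame without a stop codon along all 60 bases, including those shown. The probes of Cct7 and Cct8 and the second probe of Cct2 cover more of the genome than their 60 bases (327, 149 and 154 bases).
Cct7, chr6:85417773-85418099, plus strand: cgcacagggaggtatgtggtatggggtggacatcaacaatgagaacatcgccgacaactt
Cct8, chr16:87485981-87486129, minus strand: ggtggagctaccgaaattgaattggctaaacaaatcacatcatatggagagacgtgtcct
Cct3, chr3:88115634-88115693, plus strand: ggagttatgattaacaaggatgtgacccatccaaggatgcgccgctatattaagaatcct
Tcp1, chr17:13116096-13116155, plus strand: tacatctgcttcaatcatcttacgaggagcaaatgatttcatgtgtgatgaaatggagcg
Cct2 (a), chr10:116490137-116490196, minus strand: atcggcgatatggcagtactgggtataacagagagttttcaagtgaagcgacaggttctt
Cct2 (b), chr10:116498411-116498564, minus strand: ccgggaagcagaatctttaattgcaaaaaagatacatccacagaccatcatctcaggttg

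In growing cells most CCT mRNAs lay towards the polysomes. The median log2 P/FM of the 8 genes was 0.99, against 0.30 over 14657 coding probes, and 7 of 9 mRNA probes had a value of 0 or more (61.8% of all coding probes). This excess went with signal level: among probes with A above 10 on both arrays the CCT median was 0.71 against 0.87 over coding probes, and with A above 7, 6 of 8 CCT probes had 0 or more, where 71.6% of coding probes did. The spread among subunits was wide. Cct7 had the highest ratio, 2.06 ± 0.24, followed by Cct3 with 1.97 ± 0.25, and these neighbours differed by less than their errors. Cct8 followed with 1.47 ± 0.21, Cct4 with 1.09 ± 0.21, Cct6a with 0.89 ± 0.23 and Cct5 with 0.32 ± 0.21. Cct2 had a mean of 0.13 over its 2 probes, with an SD of 0.33 between them. Tcp1, which encodes the subunit also called CCT1, was the lowest at -0.60 ± 0.24, that is with less signal in P than in FM. Of the 7 gaps between neighbours in this order, 4 were larger than the combined error of the pair.

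After 3 h of thapsigargin all 9 mRNA probes had a lower log2 P/FM on the unscaled arrays, a direction shared by 67.8% of coding probes and, as given further on, not kept by every member once the arrays are scaled. The median change of the 8 genes was -1.39, against -0.64 over all coding probes. The median ratio itself was -0.54 in thapsigargin. A single probe, that of Cct3, stayed at 0 or more (40.2% of coding probes did).

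**Figure D1:**
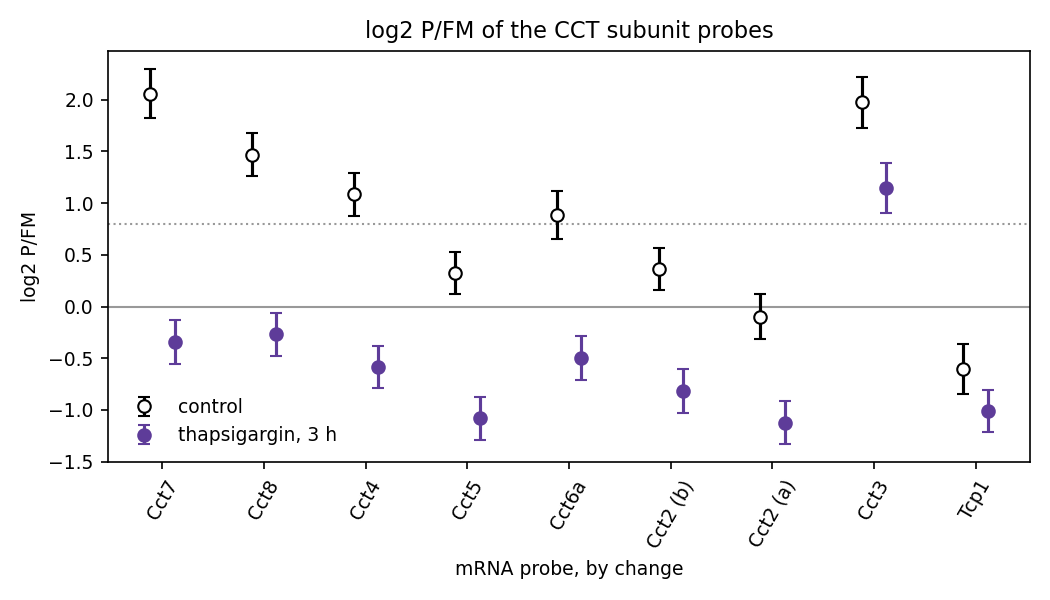
Translation efficiency (log2 P/FM, vertical axis) of the 9 CCT mRNA probes on the control array (open) and the thapsigargin array (filled), ordered by their change. Bars are the scanner software's error for the single spot, and the dotted line marks 0.8. All filled points lie below their open ones, and that of Cct3 alone remains above 0.

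Cct7 changed the most on the unscaled arrays. Its log2 P/FM went from 2.06 to -0.34, a change of -2.40 ± 0.32 or a 5.27-fold lower ratio, at percentile 6.62 of all coding probes. This order depends on scaling: Cct6a had the lowest change with loess (-1.18, Cct7 -0.61) and with the processed signals (-1.38, Cct7 -0.63). Cct8 (-1.74 ± 0.30), Cct4 (-1.67 ± 0.29), Cct5 (-1.41 ± 0.29) and Cct6a (-1.38 ± 0.31) formed a close group, and neighbours within it differed by less than their errors. For Cct2 both probes gave nearly the same change, -1.02 ± 0.30 and -1.18 ± 0.30, although the first was much brighter than the second (A of 12.49 and 8.57 in control). Cct3 changed by -0.83 ± 0.35 and Tcp1 by -0.41 ± 0.32, both less than the other 6. Of the 7 gaps in this order only that between Cct7 and Cct8 (0.66) was larger than the combined error of the pair (0.43).

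Over all 8 genes log2 P/FM spanned 2.66 units in control, with an SD of 0.93 between genes, and 2.23 in thapsigargin, with an SD of 0.72. Most of the span in thapsigargin was due to Cct3. Leaving that gene out was a choice made after the values were seen. Cct3 was the highest gene in thapsigargin but not in control, so its removal could narrow only the thapsigargin span. The other 7 spanned 2.66 and 0.81, and lay in thapsigargin between -1.08 for Cct5 and -0.27 for Cct8. Cct3 stood 1.42 above the next gene there, with a combined error of 0.32. Over all coding probes the lower and upper quartiles were -0.40 and 0.97 in control, and -0.93 and 0.40 in thapsigargin.

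By the thresholds of the study's translation classes, 8 of 9 CCT probes were sensitive (a change of -0.8 or lower), all but that of Tcp1, where 45.2% of coding probes were. With centring 5 of 9 were (29.9% of coding probes), and with loess or the processed signals of the scanner software 1 of 9 was, where 27.1% and 33.5% of coding probes were, a smaller share than among coding probes. A single probe was resistant, meaning that both arrays gave at least 0.8: Cct3, with 1.97 and 1.15 (3.54% of coding probes). Cct3 thus met both definitions, and its change lay only 0.03 beyond the threshold for sensitive, much less than its error. None was inducible, defined as a ratio at or below 0 in control with a change of 1 or more (11.0% of coding probes). The share of sensitive probes rises with signal. Among 2296 coding probes with A above 10 on both arrays it was 76.3%, with a median change of -1.62, and 5 of the 6 CCT probes in that range were sensitive, with a median change of -1.54 over their genes. Set beside coding probes in the same range, these 6 had a change in log2 P/FM near the median.

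On the unscaled arrays the P and FM channels did not contribute alike to the lower ratio. There the P signal of CCT mRNAs was nearly the same on both arrays in the median, with changes per probe from -0.23 to 0.54 on the log2 scale. The FM signal was higher in thapsigargin for every mRNA probe. No CCT probe had a P signal that differed by 0.8 or more on the log2 scale in either direction, as 43.1% of coding probes did, and the P signal was lower for 4 of 9 (46.9% of coding probes). The FM signal was higher for 9 of 9 (84.8% of coding probes), from 1.29-fold for Tcp1 to 4.51-fold for Cct7, and for 8 of 9 with loess, centring or the processed signals and 7 of 9 with normexp. The P signal stayed within 0.8 for 9 of 9 with centring or normexp, 8 of 9 with the processed signals and 6 of 9 with loess. The median change of the 8 genes was 0.01 in log2 P signal and 1.51 in log2 FM signal, against 0.08 and 0.71 over all coding probes. The P signal of coding probes depended on signal level. With A above 10 on both arrays the CCT medians were -0.04 in P and 1.60 in FM, against -0.58 and 1.03 over coding probes. With scaling the channels were closer: the medians of the 8 genes were 0.70 in P and 0.84 in FM with loess, and 0.24 and 0.44 with the processed signals. The fractions were labelled in the proportions of RNA they held, which differed between control and stressed cells. By the study's methods, P held more RNA than FM in control cells, and FM more than P in stressed cells. The labelled amounts thus differed in the same direction as the lower ratio and the higher FM signal. The part of this in the channel signals was not tested.

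For Cct7 the P signal was 12008 in control and 10264 in thapsigargin, in scanner units above background, whereas the FM signal was 2888 and 13018. For Cct8 the P signal was 2906 and 3790 and the FM signal 1050 and 4562. For Cct4 the P signal was 2919 and 2837 and the FM signal 1376 and 4264. In these 3 genes P was the brighter channel in control and FM in thapsigargin, with most of the difference on the FM side.

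Cct5 gave 16933 and 16384 in P and 13520 and 34654 in FM. Cct6a, whose probe was the dimmest of the 9, gave 138.5 and 185.6 in P and 74.9 and 262 in FM. The first probe of Cct2 gave 5573 and 8085 in P and 5965 and 17589 in FM. Its second probe gave 432 and 445 in P and 336 and 783 in FM, so the FM signal was higher on the thapsigargin array for both, by 2.95-fold and 2.33-fold.

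Cct3 and Tcp1 stood at the low end of this difference. Cct3 gave 917 and 952 in P and 233 and 430 in FM, the only mRNA probe brighter in P than in FM on both arrays. Tcp1 gave 3234 and 3156 in P and 4917 and 6355 in FM, the smallest FM difference of the family.

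**Figure D2:**
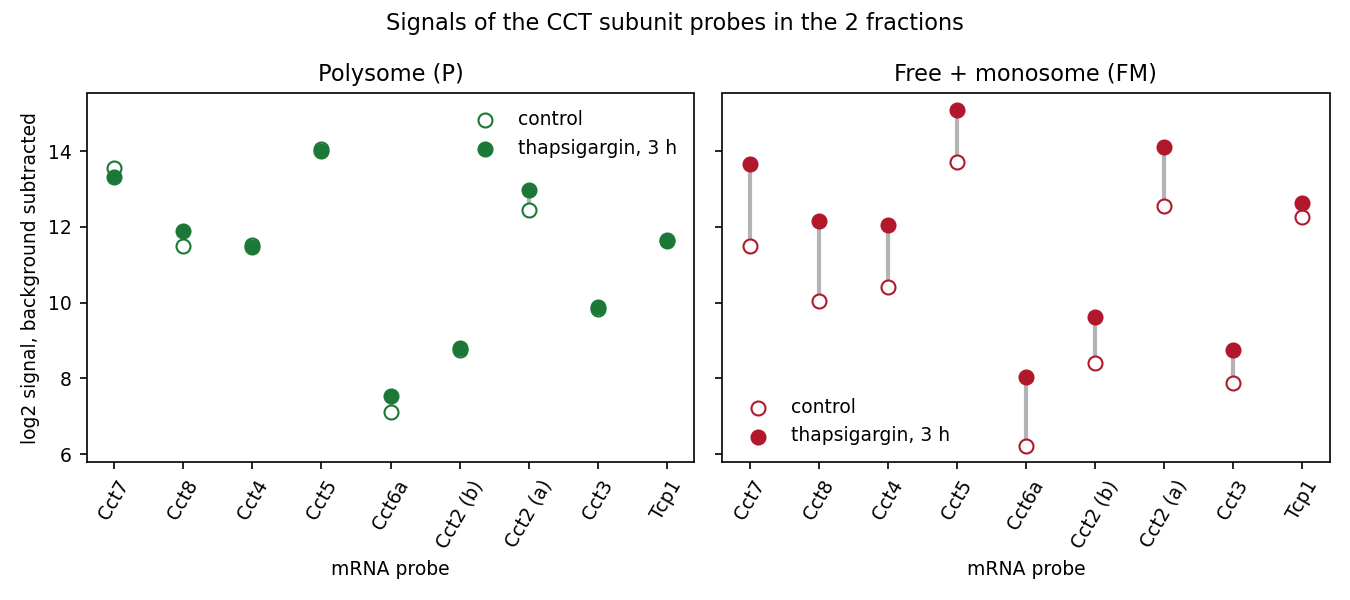
Background-subtracted signal (log2, vertical axis) of each CCT mRNA probe in the polysome channel (left) and the free and monosome channel (right), control open and thapsigargin filled, 1 spot per point. In P the filled points differ from the open ones by -0.23 (Cct7) to 0.54 (Cct2 (a)). In FM all filled points are higher, with the smallest difference at Tcp1 (0.37) and the largest at Cct7 (2.17).

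Relative abundance, A, was accordingly higher in thapsigargin for 9 of 9 CCT probes (77.9% of coding probes), and for 8 of 9 with centring, where Tcp1 was lower, or with the processed signals, and 7 of 9 with normexp, where Cct3 and Cct6a were lower. The median change of the 8 genes was 0.82, against 0.40 over all coding probes and 0.24 over those with A above 10. An increase of 1 or more was met by 3 of 9 probes (13.4% of coding probes): Cct8 with 1.25, Cct6a with 1.11 and the first probe of Cct2 with 1.05, whose second probe gave 0.63. With centring or the processed signals 0 of 9 met it. Cct7 had a change in A of 0.97, Cct4 of 0.80, Cct5 of 0.66, Cct3 of 0.47 and Tcp1 of 0.17. Because A weighs both log2 signals alike, a higher FM signal beside a nearly equal P signal raises A by itself. Total RNA per labelling was held constant. More mRNA per cell, a larger share of the RNA and a shift between fractions therefore cannot be told apart in A.

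These values depend on leaving the arrays unscaled, as the study did. Where each array was fitted by loess, which sets the median ratio to 0 at every signal level, the median change in log2 P/FM of the CCT genes was -0.15, the probes of Tcp1 and Cct5 and the first of Cct2 were higher, and 6 of 9 probes were lower (53.8% of coding probes). Processed signals of the scanner software, which are dye-normalized in a similar way, gave -0.15 and 6 of 9 (57.2%). Centring each array on its median gave -0.89 and 8 of 9 (54.0%), with Tcp1 higher. Where the 10 spike-in probes were set equal, the change was 1.16 and 0 of 9 probes were lower (4.87%). The spike-in probes had themselves a median change in log2 P/FM of -2.44.

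**Figure D3:**
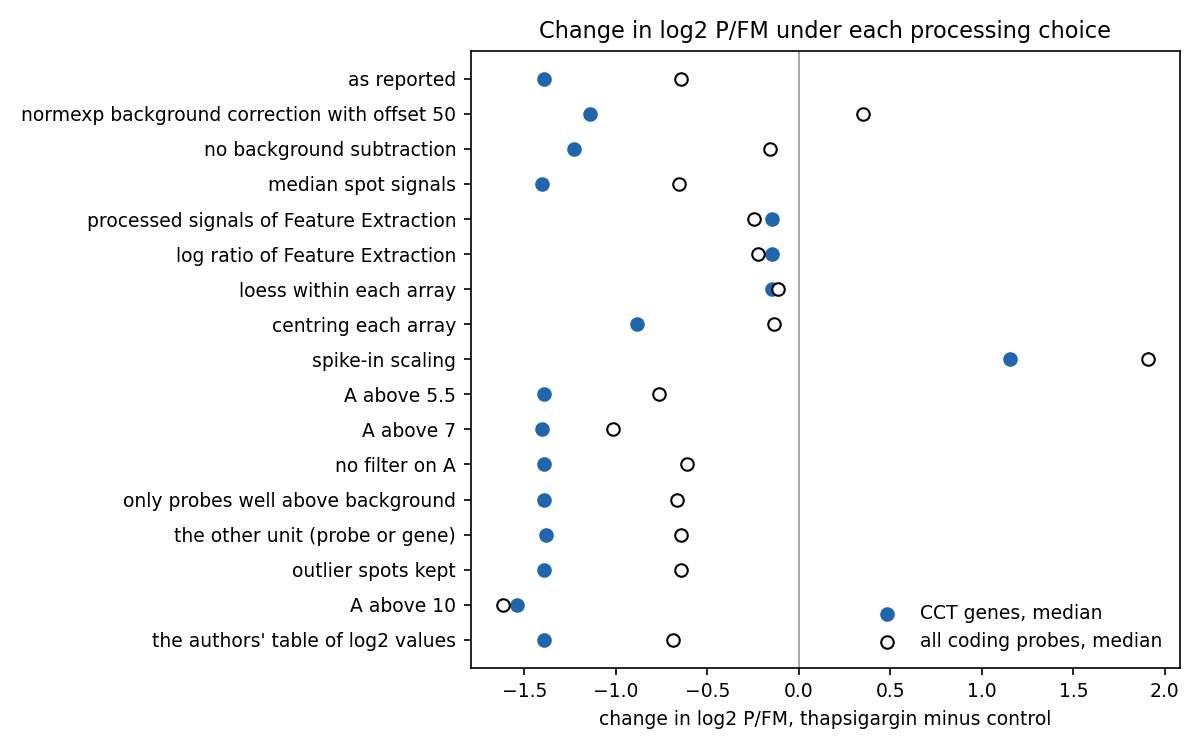
Median change in log2 P/FM (horizontal axis, thapsigargin minus control) of the CCT genes (filled) and of all coding probes (open) under each way of computing the signals, scaling the arrays or filtering the probes. The filled points lie at or near -1.39 under most choices, several of which keep the same CCT probes and signals. They lie near -0.15 with loess or the scanner software's own normalization, and at 1.16 with spike-in scaling, where the median of all coding probes is 1.91.

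The 3 cDNA clone probes did not follow the mRNA probes in every respect. That of Tcp1 (clone AK150666) had a log2 P/FM of -1.61 ± 0.26 in control and -2.52 ± 0.32 in thapsigargin, lower than the mRNA probe on both arrays, with a change of -0.91. That of Cct3 (AK031293) had a P signal not well above background in control. By the measured signals FM was 7.69-fold higher than P there, the opposite side from the mRNA probe. Its FM signal was not well above background in thapsigargin. By the measured signals it was 5.87-fold higher in control, where the mRNA probe was higher in thapsigargin. Both ratios rest on a signal near background and are imprecise. That of Cct4 (AK011873) was not well above background in either channel on either array.

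The chaperonin's partners were mostly lower in log2 P/FM too, as were 67.8% of coding probes and 76.9% of those with A above 7. Prefoldin, the complex that delivers chains to CCT, had 6 of 6 genes sensitive, against 45.2% of coding probes and 56.6% of those with A above 7. The median change in log2 P/FM of prefoldin was -1.64. Its P signal was lower for 6 of 6 (46.9% of coding probes, and 54.5% with A above 7). The median change in P signal of prefoldin was -0.90 on the log2 scale, and its median change in A was -0.01. The genes ranged from Pfdn1 (-2.33 in log2 P/FM) to Vbp1 (-1.42).

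The phosducin-like co-chaperones had 3 of 4 genes above the filter, without Pdcl2, and 2 were sensitive (45.2% of coding probes, and 56.6% with A above 7). Their median change was -0.95, from -1.72 for Pdcl3 to 0.65 for Pdcl, which was higher in thapsigargin. The tubulin cofactors, with the GTPase Arl2 among them, had 6 of 6 above the filter and 4 sensitive, with a median of -1.98. Their median A in control was 10.60. Among coding probes with A above 10 on both arrays 76.3% were sensitive, with a median change of -1.62. Tbcb, which acts on α-tubulin, had the lowest value (-3.52) and Tbce, whose probe was dim (A of 4.65), the highest (-0.07).

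The actin and tubulin clients of CCT were lower in log2 P/FM, and the other clients were divided. Of 16 actin, tubulin and actin-related genes 15 had a coding probe, all above the filter (Tuba1b was not found), and 15 were lower (67.8% of coding probes) and 12 sensitive (45.2%), with a median change of -1.54. Their median A in control was 11.33. Among coding probes with A above 10 on both arrays 90.2% were lower and 76.3% sensitive, with a median change of -1.62, so these clients were near coding probes of like signal. Actb, which encodes β-actin, changed by -1.75, and Tubb5, the β-tubulin with the highest A of the tubulins (15.28), by -2.87. Tubb6 had the lowest value (-3.25) and Actr2, of the Arp2/3 complex, the highest (-0.28). The P signal of the actin and tubulin clients was lower for 14 of 15 (46.9% of coding probes, and 54.5% with A above 7). Its median change was -0.58, near that of coding probes with A above 10 (-0.58). Of 9 other clients 8 were above the filter (Vhl had no coding probe). Of these, 6 were lower, all of them sensitive, and Mlst8 and Ppp2r2a were higher, a share of lower genes near that of all coding probes. Their median was -1.75, from the G protein subunit gene Gnb2 (-2.40) to Mlst8 (0.41), of the mTOR complexes.

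Other chaperones gave a mixed picture. The mitochondrial chaperonin pair differed, with -1.99 for Hspe1 and -0.34 for Hspd1. Of 11 cytosolic heat shock chaperones 9 were above the filter (without Hspa1b and Hspb1), with a median A of 10.65 in control. Of these 9, 6 were sensitive (45.2% of coding probes, and 76.3% with A above 10). The median change of the heat shock chaperones was -1.07, from -1.58 for Hspa8 to 0.65 for Hsph1. Their median changes in P signal (0.08) and FM signal (1.15) were near those of the CCT genes. The chaperonin-like genes, relatives of CCT that are not among its subunits here, had 4 of 5 above the filter (without Cct8l1), with a median of 0.15 from -1.65 for Cct6b to 0.42 for Bbs12. The probes of Bbs10, Bbs12 and Mkks were dim (A of 5.28, 4.96 and 6.27 in control). With A above 5.5 or 7 the median of this list had the opposite sign, as given at the end. Cct6b, a close copy of Cct6a, had a log2 P/FM of 1.15 and -0.50 where Cct6a had 0.89 and -0.50. The Cct6b probe was the brighter, with an A of 9.40 in control against 6.67 for Cct6a. Whether the probe of either also binds the other's mRNA was not tested.

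The core ring of the proteasome, another large barrel of fixed proportions, gave the clearest contrast. All 14 of its genes were sensitive, with a median change in log2 P/FM of -2.86, from -3.89 for Psmb6 to -1.93 for Psma1. Among coding probes with A above 10, 76.3% were sensitive, with a median change of -1.62. The FM signal of the core genes was higher by a median of 1.64 log2 units, close to the 1.51 of the CCT genes. The P signal of the core genes was lower for 14 of 14 (46.9% of coding probes, and 54.5% with A above 7). Its median change was -1.28, against 0.01 for CCT. Over coding probes with A above 10 the median changes were 1.03 in FM and -0.58 in P. All 14 core genes had a lower change in P signal (-1.63 to -0.63) than every CCT gene (-0.23 to 0.42). This order held for every core gene above the filter under each choice of signal, filter and scaling for which the channels were computed. The medians were -0.51 for the core ring and 0.70 for CCT with loess, and -0.99 and 0.24 with the processed signals.

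**Figure D4:**
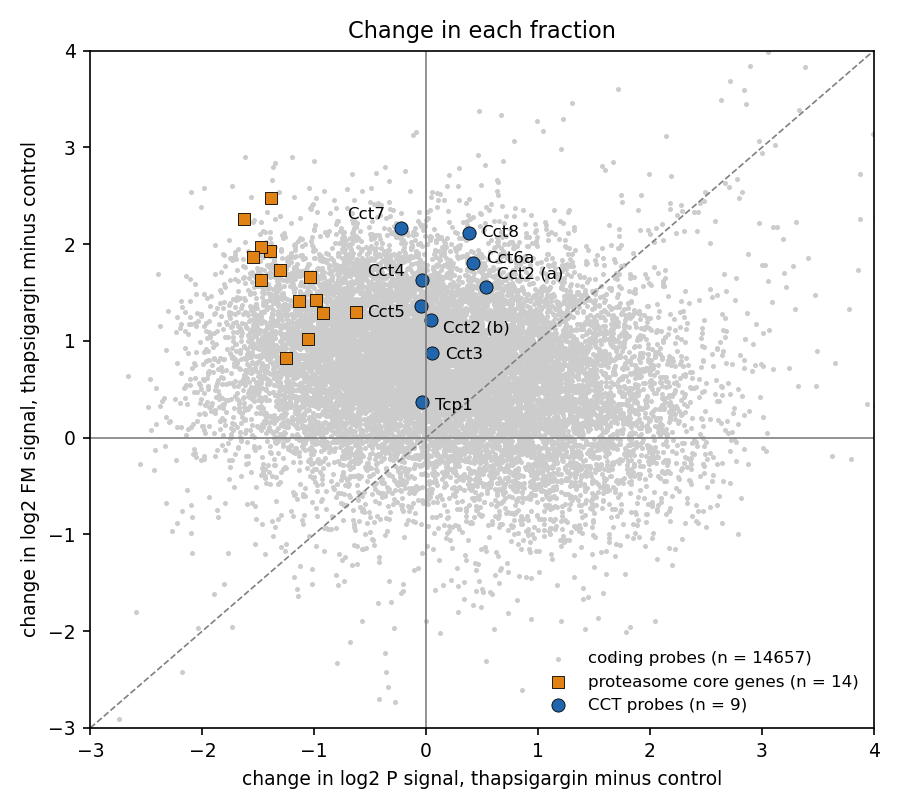
Change in log2 P signal (horizontal) against change in log2 FM signal (vertical), thapsigargin minus control, for 14657 coding probes (grey), the 9 CCT mRNA probes (blue) and the 14 proteasome core genes (orange squares). 13 coding probes lie outside the axes. Points above the dashed line of equal change have a lower log2 P/FM. The CCT probes lie between -0.23 and 0.54 in P, and the proteasome genes to the left of them at similar heights.

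**Figure D5:**
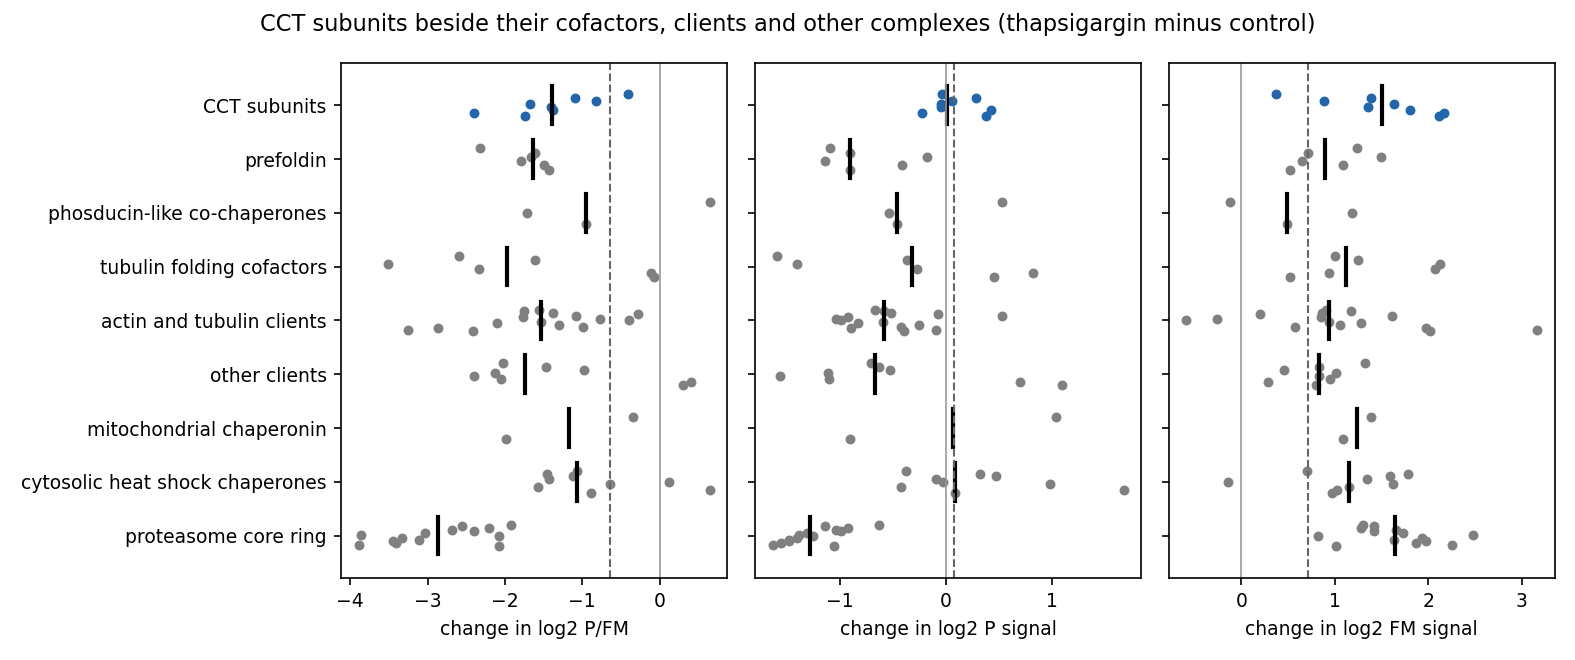
Change in log2 P/FM (left), log2 P signal (middle) and log2 FM signal (right), thapsigargin minus control, for each gene above the filter in the CCT family and the lists set beside it. Black bars are medians and the dashed line is the median of all coding probes. In the middle panel the median of the CCT genes is 0.01, that of prefoldin -0.90 and that of the proteasome core ring -1.28.

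Genes of the stress response itself went the other way. The 4 stress markers had a median change in log2 P/FM of 2.51 and a median change in A of 2.26, and 3 of 4 were inducible (11.0% of coding probes). Hspa5, the ER chaperone BiP, had a P signal higher by 2.64 log2 units and an FM signal higher by 1.28.

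Among 10183 other coding genes, those nearest to the median CCT gene over the 4 log2 signals were Cc2d1b (distance 0.29), Mcm5 (0.32), Ralb (0.33), Zfp768 (0.35) and Hnrnpk (0.35). The distance depends on how bright each probe is as well as on the ratios. Of the CCT genes, Cct4 (0.09) and Cct8 (0.54) were closest to that median and Cct6a (8.35) was farthest. Mcm5, a helicase subunit, went from 0.64 to -0.51 in log2 P/FM, and Hnrnpk, an RNA-binding protein, from 1.32 to -0.55.

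The promoters of RefSeq (GRCm38.p6, 250 bases before to 50 after the annotated start) were searched on both strands for short motifs. Any relation of these motifs to A was not tested. A window was found for 7 of the 8 genes, all but Cct4, with 9 windows in all because Cct2 and Cct5 have a pair of starts each. The GC box GGGCGG was in 8 of 9 windows, both starts of Cct2 among them, and in each of the 7 genes, against 35.7% of 32851 windows. Those windows were not limited to genes above the signal filter, and the share among such genes was not computed. The CCAAT box, with the letters CCAAT, was in 4 of 9 (Cct3, Cct6a, Cct7 and Tcp1), against 37.4%. The ETS site CCGGAAG was in 3 of 9 (Cct2, Cct8 and Tcp1), against 8.86%.

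The other letters searched give no count that can be read against so few windows. The heat shock element GAANNTTC was in 1 of 9 windows, a start of Cct2, against 7.86%. The ATF4 site TGATGCAA and the ER stress element were in 0 of 9, against 0.895% and 0.119%. The NRF1 core GCATGCGC was in 1 of 9, a start of Cct5, against 2.71%. No member window has a C followed by 4 pyrimidines at the annotated start (2.51% of all windows do), the form of the start of ribosomal protein mRNAs. The GC content of the 9 windows was between 47.3% and 67.7%, and its part in the GC box count was not tested. The 250 bases before the start are shown for the genes with the largest differences in FM signal, with GC boxes of either strand in capitals.
Cct7, GRCm38.p6, chr6:85451255-85451504, plus strand: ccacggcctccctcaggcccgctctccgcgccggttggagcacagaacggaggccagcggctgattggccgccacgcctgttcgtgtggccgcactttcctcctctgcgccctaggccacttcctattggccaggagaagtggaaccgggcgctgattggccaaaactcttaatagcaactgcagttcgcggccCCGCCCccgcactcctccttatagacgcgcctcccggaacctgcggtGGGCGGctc
Cct8, GRCm38.p6, chr16:87495870-87496119, minus strand: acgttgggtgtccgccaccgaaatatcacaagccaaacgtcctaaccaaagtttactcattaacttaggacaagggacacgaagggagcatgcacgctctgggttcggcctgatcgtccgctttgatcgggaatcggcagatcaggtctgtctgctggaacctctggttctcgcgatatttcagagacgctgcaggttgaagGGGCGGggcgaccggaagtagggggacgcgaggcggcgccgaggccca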

How the data were processed

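Per the labels and the study's methods, polysome and free plus monosome RNA was pooled over preparations, labelled in the proportions found in the cells and hybridised to 44K mouse arrays, 1 per condition. The intensity values are the mean and median spot and local background brightness that the authors deposited from Agilent Feature Extraction 10.7.1 (10.7.1.1 in the file headers), together with its log10 ratio, its error of that ratio (a score from the software's error model, as deposited) and its spot flags. The authors also deposited a table of log2 P/FM values, averaged per mRNA after background correction, with no between-array scaling.

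From the intensities, the median of the local background was taken off each spot's mean signal, with a floor of 0.5, 295 outlier spots were left out, spots were averaged per probe, and coding probes (26723, of which 14657 passed) were kept where A was above 4.5 on both arrays. A gene is the mean of its coding probes, and clone probes are apart. Symbols came from RefSeq accessions, of which 98.3% matched. Python 3.11.15, pandas 2.3.3, numpy 2.4.6 and, for normexp and loess, limma 3.58.1 in R 4.3.3 were used. Only the step from log2 signals to ratios and classes was tried on simulated data, not the background correction, the filter or the scaling. With 1 array per condition, the design allowed no test, and precision is limited by their number. Class thresholds are those the study used.

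The members, the gene lists and the rule for the genes named (all members, the highest and lowest of each list, Actb and the brightest tubulin, and the 5 nearest genes) were chosen with earlier results of these data known. Genes and clones outside that rule were named after their values were seen. Alternatives were normexp with an offset of 50, no background subtraction, median signals, processed signals, the deposited ratios, loess, centring, spike-in scaling, filters at 5.5, 7 and none, bright probes only, the other unit and outliers kept. A filter at 10 and the clone probes were added after seeing the data.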

Additional observations from a re-analysis of the deposited data

How the results depend on the processing

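No replicate could be left out and no paired analysis was possible because each condition had 1 array. The medians and counts of the CCT genes gave 110 values within the spread between probes of an mRNA (counts within 1.5 times), 28 beyond it and 5 of opposite sign, and the cause was not tested. Many of the 110 could not differ, so their number does not measure how stable the results are. The filter at 5.5, no filter, bright probes only and outliers kept left the same CCT mRNA probes and signals, and the authors' table holds the same unscaled ratios. The direction of the change in log2 P/FM depends on how the arrays are scaled. Under spike-in scaling the CCT medians were 1.39 in control, 2.41 in thapsigargin and 1.16 for the change, with 0 probes sensitive, 5 resistant, 1 inducible and 0 lower, and the genes changed by 2.14 (Tcp1), 1.45 (Cct2), 1.72 (Cct3), 0.88 (Cct4), 1.14 (Cct5), 1.17 (Cct6a), 0.15 (Cct7) and 0.81 (Cct8). The lists then gave 0.91 (prefoldin), 1.60 (phosducin-like), 0.57 (tubulin cofactors), 1.01 (actin and tubulin), 0.80 (other clients), 1.38 (mitochondrial chaperonin) and 1.48 (heat shock chaperones). With loess the medians were 0.47, 0.069 and -0.15, with 1 probe sensitive and 1 inducible, and the changes were 1.12 for Tcp1, 0.15 for Cct2, 0.57 for Cct5, 0.51 for the mitochondrial chaperonin and 0.32 for the heat shock chaperones. The scanner software, by its processed signals or by its log ratio, gave medians of 0.41, 0.17 and -0.15, with 1 sensitive and 1 inducible probe, 1.101 for Tcp1, 0.083 for Cct2, 0.10 for Cct5, 0.29 for the mitochondrial chaperonin and 0.23 for the heat shock chaperones. The processed signals also gave 0.054 for the phosducin-like genes, a median change in A of 0.39 for CCT with 0 probes at 1 or more, and changes in A of -0.20 (Tcp1), -0.11 (phosducin-like), -0.20 (actin and tubulin), -0.36 (other clients) and -0.21 (proteasome). Centring each array gave a CCT change of -0.89 in log2 P/FM and 0.39 in A, with 5 sensitive probes and 0 with an A change of 1 or more, 0.10 for Tcp1, and A changes of -0.26 (Tcp1), -0.22 (phosducin-like), -0.26 (actin and tubulin), -0.40 (other clients) and -0.21 (proteasome). With normexp the CCT median was 0.62 in control and 0.60 for the change in A, with 5 sensitive probes and 0.16 for the phosducin-like genes in log2 P/FM, and A changes were -0.075 (Cct3), -0.29 (Cct6a), -0.95 (phosducin-like), -0.94 (chaperonin-like), -0.052 (actin and tubulin) and -0.34 (other clients). With A above 5.5 or 7 the chaperonin-like genes gave -1.11, and with A above 10, 6 CCT probes were left, 5 sensitive and 0 resistant, and prefoldin gave 0.071 in A. The authors' log2 table gave the CCT median of -1.39 unchanged. CCT had a lower change in log2 P/FM than the median coding probe under the choices run except those 2 outputs of the scanner software (0.10 and 0.08 higher) and A above 10 (0.08 higher). With loess the difference was only -0.03, well within the spread between probes of an mRNA (0.32). With normexp and without background subtraction the filter on A removed no coding probe, so CCT was set beside all 26723, dim ones included. Signal over background limits the clone probes of Cct3 and Cct4.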
